A study of Danio rerio with 6 samples.

Results

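Fibroblast nuclei were examined in single-nucleus RNA-seq of zebrafish carrying BRAF-driven melanomas. They were found by a rule on measured transcripts, since the nuclei were not labelled by cell type. A barcode counted as a nucleus when it held 500 to 1000000 unique molecular identifiers (UMIs, counted transcript molecules) from no fewer than 200 genes, of which mitochondrial transcripts took no more than 20%. Of the 13380 nuclei, 655 (4.90%) had UMIs of at least 2 of 6 genes. These genes were col1a1a, col1a1b and col1a2, which encode the chains of type I collagen, lum and dcn, which encode small proteoglycans of the collagen matrix, and pdgfra, which encodes a receptor for platelet-derived growth factor. The 655 nuclei were ranked by the share of their UMIs in the 6 genes and the first 300 (2.24% of all) were taken as members. The other 13080 nuclei served as the comparison.

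The nuclei came from adult casper fish of the genotype mitfa-BRAFV600E; p53-/-; mitfa-/-, injected as embryos with mitfa-MITF and mitfa-GFP, so that the mitfa promoter, active in the pigment lineage, drove the oncogene, the rescuing MITF and the GFP mark. Heads and tails were removed, and tumor and adjacent tissue of 3 fish was lysed. Nuclei were sorted as GFP-positive (tumor) or GFP-negative (microenvironment), in about equal numbers, and pooled. Each fish and gate carried its own hashtag, and all nuclei went through 1 droplet reaction, so the hashtags separate the 3 fish within 1 library. No healthy fish, other genotype or other treatment was among the nuclei, and 2 libraries of dissociated cells from fish of the same model are used at the end.

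Fibroblasts are the connective tissue cells that make and remodel the extracellular matrix. They secrete fibrillar collagens, which assemble into fibrils with proteoglycans and glycoproteins on their surface and are then crosslinked outside the cell. They also receive PDGF and TGF-beta signals and release chemokines and growth factors. In tumors, fibroblasts with contractile or matrix-rich features are often called cancer-associated fibroblasts. Zebrafish have several gene copies for many matrix proteins, including a pair of genes for the first chain of type I collagen.

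Because the 6 genes chose the members, a high level of these genes, and of any gene that travels with them, is a description and carries no test, and the fish are given side by side instead. Levels are CPM, a gene's UMIs scaled to 1000000 gene UMIs, averaged over nuclei with equal weight unless said otherwise. Intervals are exact 95% Poisson or binomial intervals and cover counting error only. The library held 103484814 UMIs in the 13380 nuclei. Members held 647016 UMIs, with a median of 1562.5 per nucleus (514 to 14524) and 904 genes, and other nuclei had medians of 2178 UMIs and 1054 genes. Cell barcodes shared between the nuclei and the 2 libraries of dissociated cells numbered 4 and 1. No caller of doublets was run. Of the members, 225 (75.0%) carried 1 hashtag above 2 times its median, 36 carried none and 39 (13.0%, against 12.2% of other nuclei) carried several, so fish values below rest on 58, 98 and 69 members of fish 1, 2 and 3.

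The share of UMIs in the 6 genes ran from 16.261% in the first-ranked member (207 of 1273 UMIs) to 0.163% in the last (2 of 1227), with a median of 0.406%. The member before the last had 0.164% (3 of 1831 UMIs). The first nuclei outside had 0.162% (14 of 8620 UMIs) and 0.161% (3 of 1865). There was thus no gap in the share at the limit, and deep nuclei with several UMIs of the 6 genes stood just outside it beside shallow members with 2 or 3. The 300 nuclei ranked next had a median of 5599 UMIs.

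Type I collagen genes chose most members. Col1a1b was detected in 254, col1a2 in 243 and col1a1a in 223 members, dcn in 118, pdgfra in 95 and lum in 10. Col1a1b and col1a2 were detected in the same nucleus in 210 members, and col1a1a with col1a1b in 192. At least 1 of lum, dcn and pdgfra was seen in 167 members, and 133 qualified through type I collagen alone. A total of 93 members had 2 of the 6 genes, 105 had 3, 71 had 4, 28 had 5 and 3 had all 6.

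The mean level of col1a2 in members was 1942, 2342 and 2418 CPM in fish 1, 2 and 3, against 15.8, 17.9 and 20.0 CPM in the other nuclei of the same fish. That of col1a1a was 1453, 2038 and 1940.3 CPM against 13.4, 16.1 and 11.8 CPM. Dcn, which encodes decorin, stood at 363, 365 and 347 CPM against 2.86, 4.09 and 3.86 CPM. Col1a1b stood at 1713, 2086 and 2761 CPM against 14.4, 16.1 and 18.9 CPM. Col1a2, col1a1a and dcn were thus similar across the fish. The members of every fish were chosen on these genes, however, so their levels in members are not independent of the choice. Pdgfra was less even, at 211, 289.8 and 562 CPM in members against 18.1, 5.69 and 11.0 CPM. Lum had only 14 UMIs in all members, 1 UMI in 8 of the 10 members that had any, so lumican, a common fibroblast marker, was close to undetected. Empty barcodes of 10 to 100 UMIs, a measure of free RNA, gave 22.3 CPM of col1a1a, 30.8 CPM of col1a2 and 1.96 CPM of dcn. Col1a1a was seen in 74.3% of members and 3.39% of other nuclei, and after thinning each nucleus to 500 UMIs in 46.7% and 0.612%. Nuclei chosen by endothelial and by keratinocyte genes had it in 2.00% and 5.33%, at medians of 1033.5 and 1831 UMIs. Members were left out of both classes, so these low shares follow in part from the choice.

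**Figure D1:**
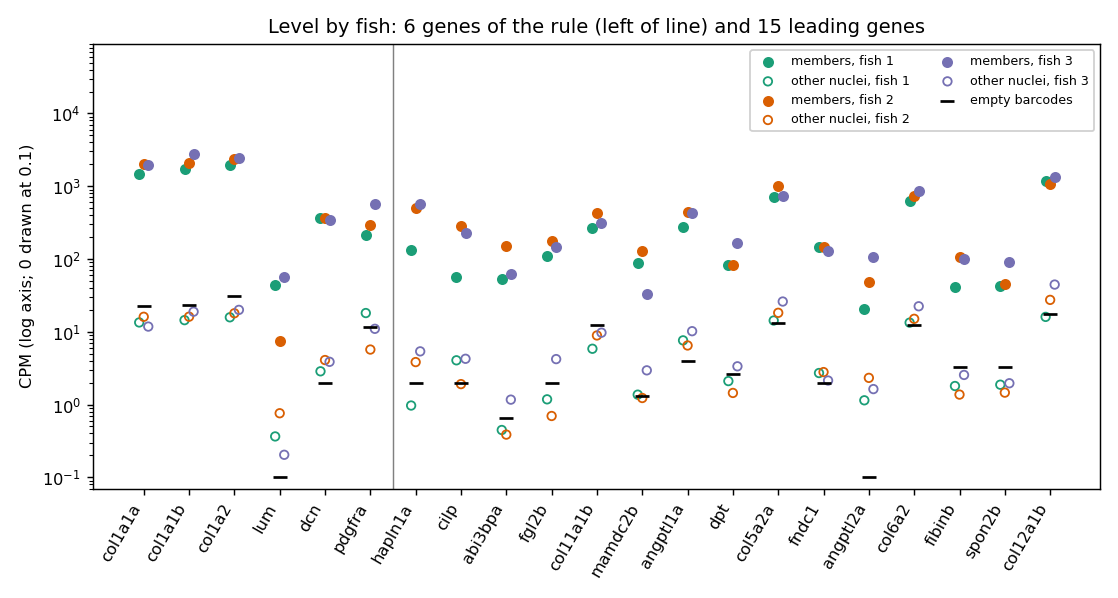
Level of the 6 genes of the rule, left of the line, and of 15 genes outside it with the largest ratios between members and other nuclei. The y axis is CPM on a log scale, with 0 drawn at 0.1. Filled points are members and open points other nuclei of fish 1, 2 and 3, each the mean over nuclei with 1 hashtag, and dashes are empty barcodes. In each of these genes the members of every fish lie above the other nuclei of that fish, and empty barcodes lie nearer to the other nuclei than to the members.

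Genes outside the rule were then described, which is no independent check of the label. A gene was called higher when its summed CPM and its mean CPM per nucleus were both at least 4-fold higher in members than in other nuclei, and lower when both were at least 4-fold lower. Both ratios were asked for because a few nuclei with very many UMIs, which carried oocyte genes, weigh on sums. Of 23017 genes with at least 20 UMIs, 1186 were higher (5.15%) and 3878 lower (16.8%). Of the 1186, 783 were past 4-fold with the bounds of their counting intervals, and 681 were higher in members of each fish. Here and below, higher in each fish means a mean CPM in members above that of the other nuclei of that fish. No fold limit and no summed ratio were asked for within a fish. Of the 3878, 3491 had no UMI at all in members, where 3 UMIs would be 4.64 CPM. Only 278 of the 3878 stood at 4 times that floor or more in the summed CPM of other nuclei. Of the 3878, 78 were past 4-fold with the bounds of their counting intervals. None of the 668 genes at a mean of 200 CPM or more per nucleus in other nuclei was lower by both ratios. The lower calls thus lay among genes below that mean, which does not make them rarely counted on sums. With 600 members 586 genes were higher, and against other nuclei of at most 5000 UMIs alone 689. The median log2 ratio of all genes was -0.43 on means per nucleus and 0.03 on sums.

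Genes that build and modify matrix were higher far more often than 5.15%, and genes of most other tissues were not. The 9 lists of fibroblast functions held from 30 of 49 higher genes for collagens to 36 of 118 for other signaling molecules. Lower genes in these lists ran from 0 of 45 for collagen synthesis to 11 of 118 for other signaling and 7 of 54 for transcription factors. Of all genes tested 16.8% were lower, and each lower gene of the 9 lists had no UMI in members. The lists of tumor, endothelial, macrophage, T and NK cell, adipocyte, erythrocyte, exocrine pancreas, intestine and oocyte genes held 0 higher genes each. The keratinocyte list had 1 of 25, the skeletal muscle list 1 of 34 and the liver list 1 of 23. The immune lists together had 2 of 66. Genes made by the same cells as type I collagen follow from the choice of the members, so these counts describe how the members look. The lists were also chosen with earlier results of these data known.

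**Figure D2:**
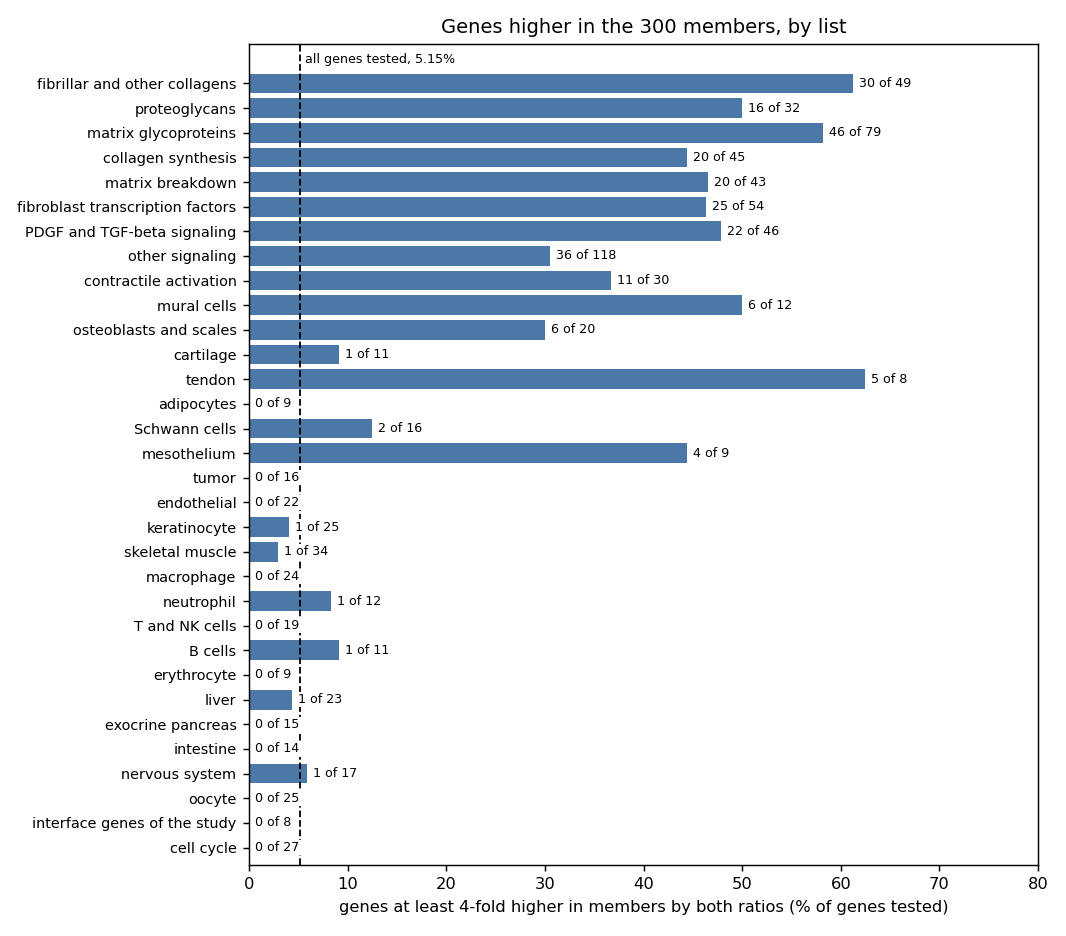
Share of each list's tested genes that were at least 4-fold higher in the 300 members by both ratios. Bars are percent of genes tested, labels give the counts, and the dashed line marks the 5.15% of all genes tested. The lists of matrix, fibroblast factors, tendon, mural cells and mesothelium lie far to the right of the line, and those of tumor, endothelial, macrophage and oocyte cells at 0. A list such as tendon had only 8 genes.

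The members were nevertheless mixed. Chosen after the values were seen, 3 kinds of member carried genes of other cells. In 24 members (8.0%, against 5.19% of other nuclei), at least 3 of the epidermal genes cldni, col17a1b, pkp3a, tp63 and krt5 were detected. In 35 members (11.7%, against 1.82%), at least 2 of the smooth muscle genes acta2, tagln and myh11a were detected. In 33 members (11.0%, against 7.45%), over 1% of UMIs lay in the skeletal muscle list, up to 31.1% in 1 member. Together these made 85 members (28.3%) and left 215 (71.7%). Without the 85, 1296 genes were higher, of which 1046 were shared with the 1186. Genes of further tissues were present too. Over 1% of UMIs lay in the exocrine pancreas list in 28 members (9.33%, against 7.65% of other nuclei), up to 19.3% in 1 member. For the macrophage list this held in 13 members (4.33%, against 9.72%) and for the liver list in 58 (19.3%, against 31.5%). How many of these were among the 215 was not counted.

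Of the 24 epidermal members, 21 qualified through type I collagen alone. Krt91 and icn, which keratinocytes express, were found in all 24, at means of 5467 and 4277 CPM. They were also in 66 and 143 of the 215 members of none of the 3 kinds, at 430 and 1353 CPM. Among the 24 epidermal members, dcn was found in 3 and pdgfra in 1. Sparc was found in 20 at a mean of 1490 CPM, whereas the col6a3 gene that is common in other members was found in 4. Smooth muscle members had collagen VI more often, with col6a1 in 27 and col6a2 in 25 of 35, and pdgfra in 16. Of the 24 skeletal muscle members with 1 hashtag, 19 came from fish 2. The summed collagen list outside the rule stood at a mean of 7372 CPM in epidermal, 10853 CPM in smooth muscle and 8322 CPM in skeletal muscle members, and at 14912 CPM in the remaining 215. Whether these members were mixed droplets was not tested.

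Collagen genes other than type I were higher in 30 of the 49 tested (of 55 listed), with a median log2 ratio of 2.83. All 30 stayed past 4-fold within counting error, and 24 were higher in each fish. Summed over the list, members stood at 11702, 13685 and 13819 CPM in fish 1, 2 and 3, and other nuclei at 839, 856 and 1523 CPM. Fibrillar collagens, which form the load-bearing fibrils, were higher in 10 of 13. Col5a2a, a chain of the type V collagen that nucleates type I fibrils, stood at 714, 1012 and 734 CPM in members and 14.3, 18.2 and 26 CPM in other nuclei. Its mean ratio was 46.5. Col5a1, the partner chain, stood at 923, 1604 and 959 CPM against 122, 67.9 and 131 CPM, a ratio of 11.6. Members of fish 2 were the highest for either chain. Col11a1b, a type XI chain known from cartilage and tendon, stood at 267, 433 and 314 CPM against 5.84, 8.90 and 9.71 CPM.

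The beaded filament collagens, which link fibrils to cells, were higher in all 5 genes tested, with a median log2 ratio of 4.86. They include the type VI chains. Col6a2 was at 625, 744 and 849 CPM in members against 13.3, 15.1 and 22.4 CPM in other nuclei. The col6a3 gene ENSDARG00000077139 was at 3079.5, 2242 and 3153 CPM against 59.7, 35.4 and 237 CPM, and was seen in 70.3% of members, 8.10% of other nuclei and 3.0% of keratinocyte nuclei. Its level in other nuclei of fish 3 was several times that in fish 1 and 2, but members of every fish were above it. Col6a1 was at a mean of 1056 CPM against 36.5 CPM.

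Fibril-associated collagens, which sit on fibril surfaces, were higher in 4 of 9. Col12a1b was at 1189, 1055 and 1324 CPM in members against 16.0, 27.4 and 44.5 CPM, and its paralog col12a1a at a mean of 839.7 CPM against 41.3 CPM. Network collagens were higher in 10 of 15. Among them col4a2, a chain of basement membrane collagen, was at 464, 1232 and 838 CPM against 93.7, 95.6 and 194 CPM, so fish 1 members were lower than those of fish 2 and 3. Transmembrane collagens were higher in 1 of 7. Col17a1b, a hemidesmosome collagen of basal keratinocytes, had a mean ratio of 3.38 and was not called. It was detected in 20 members, and 19 of these also had pkp3a.

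Proteoglycan genes were higher in 16 of 32 tested, with a median log2 ratio of 1.85, and only 8 of the 16 were higher in each fish. The division ran by family. All 8 small leucine-rich proteoglycans tested, which bind collagen fibrils as decorin does, were higher, but their counts were low. Bgnb had 39 UMIs in 24 members, podn 18 in 17 and prelp 17 in 16, at mean ratios of 8.44, 19.6 and 31.8. Among the large and other proteoglycans 8 of 24 were higher. Vcanb, a versican, had a ratio of 11.7 and the heparan sulfate proteoglycan gpc1b one of 5.13. Hspg2, which encodes perlecan of basement membranes, had 314 UMIs and a mean ratio of 2.79, and sdc2 a ratio of 0.893; neither was called.

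Hapln1a, a link protein that fixes hyaluronan to proteoglycans, had the largest mean ratio of the leading genes, at 97.7. Members of fish 1, 2 and 3 stood at 134, 507 and 565 CPM, and other nuclei at 0.969, 3.83 and 5.38 CPM. It was detected in only 47 members, and 5 of them held 43.9% of its 148 UMIs, with up to 37 in 1 member. The mean is therefore the mean of a minority with high counts.

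Matrix glycoproteins were higher in 46 of 79 genes tested, with a median log2 ratio of 2.27. Of the 46, 37 were higher in each fish. Fibronectins and matricellular proteins, which sit between fibers and cell receptors, were higher in 24 of 38. Sparc, a collagen-binding matricellular protein, stood at 925, 1048 and 898 CPM in members against 28.9, 31.6 and 55.6 CPM in other nuclei. It was seen in 64.3% of members against 6.70% of other nuclei and 14.3% of keratinocyte nuclei. Postnb, a periostin, stood at 492, 658 and 436 CPM in members, at a mean ratio of 27.3. Members of the 3 fish differed by less than 2 times in sparc and postnb.

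The fibronectin copies parted. Fn1a was at 628, 529 and 424 CPM in members against 17.6, 26.2 and 23.3 CPM in other nuclei. Fn1b, with 281 UMIs in 106 members, stood at 432, 392 and 634 CPM against 565, 501 and 470.4 CPM, a ratio of 0.912. Only fn1a was thus higher in these nuclei, as fn1b was as frequent elsewhere.

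Elastic fiber genes were higher in 16 of 24, with a median log2 ratio of 2.77. Mfap5, a microfibril component, had 130 UMIs in 78 members and stood at 271, 214 and 234 CPM against 7.26, 8.54 and 9.10 CPM. It was seen in 26% of members, 1.57% of other nuclei and 0 of the keratinocyte and skeletal muscle nuclei. Emilin2a and LTBP4, which encode proteins of elastic fibers and microfibrils, had ratios of 25 and 23.9. Basement membrane glycoproteins were higher in 6 of 17, the lowest share of the glycoprotein groups. Lamc1, a laminin chain, had a ratio of 4.80 and lama4, a laminin chain of vessels and fat, one of 6.99.

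The machinery of collagen synthesis divided inside and outside the cell. Genes for processing and crosslinking of secreted collagen were higher in 12 of 19, with a median log2 ratio of 2.65, whereas those for hydroxylation were higher in 6 of 15 (1.47) and those for chaperones and secretion in 2 of 11 (1.15). Serpinh1b, the collagen chaperone HSP47, stood at 148, 365 and 289.6 CPM in members against 6.17, 7.64 and 10.3 CPM. Its partners in the endoplasmic reticulum with wide use, ppib and p4hb, had ratios of 0.856 and 0.959. Loxl2a, a lysyl oxidase that crosslinks collagen, stood at 168, 917 and 613 CPM against 18.2, 165 and 16.8 CPM. Fish 2 was thus the highest for loxl2a in members and in other nuclei alike, and its ratio was smallest there. Adamts2, a procollagen peptidase, had a ratio of 10.4 and pcolcea, an enhancer of procollagen cleavage, one of 18.3. No gene of this list was lower.

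Genes for matrix breakdown were higher in 20 of 43, with 18 of 37 proteases and 2 of 6 inhibitors. Htra1b, a secreted serine protease, stood at 869, 899 and 2073 CPM against 25.2, 26.5 and 49.6 CPM, so members of fish 3 were the highest. Mmp2, the gelatinase of connective tissue cells, was at 201, 257 and 259 CPM against 7.26, 21.6 and 11.6 CPM. The membrane proteases mmp14a and mmp14b had ratios of 24.5 and 5.20. Adamts15a, a metalloprotease of versican and aggrecan, had 202 UMIs and a ratio of 29.8. The gelatinase mmp9, also in the neutrophil list, had 87 UMIs in 18 members and a ratio of 8.01.

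Fibroblast transcription factors were higher in 25 of 54 tested, with a median log2 ratio of 1.83, and 22 of the 25 in each fish. Another 7 were lower, all without a UMI in members. Ebf1a and ebf3a are early B-cell factors that mesenchymal cells use as well. Ebf1a stood at 657, 766 and 1032 CPM in members against 93.2, 91.6 and 177 CPM. Ebf3a stood at 363, 1156 and 436 CPM against 73.7, 25.2 and 63.3 CPM, highest in members of fish 2 and lowest in its other nuclei. Gli3, a transcription factor of the hedgehog pathway, was at 504, 605 and 271 CPM against 24.1, 34.1 and 46.4 CPM. The classical mesenchymal factors prrx1a, osr1 and twist2 were higher at mean ratios of 10.5, 30.3 and 10.0, but with 53, 34 and 25 UMIs. Zeb2a and foxp1b, which many cell types use, had over 200 UMIs each in members and ratios of 1.36 and 0.944.

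Of the PDGF and TGF-beta genes 22 of 46 were higher, with 20 of 38 on the TGF-beta side and 2 of 8 on the PDGF side. Pdgfra, at a ratio of 28.4, was left out of these calls as a gene of the rule. The shares of the PDGF and TGF-beta sides are therefore not a like comparison. Tgfbr3, the co-receptor betaglycan, was at 1099.6, 1215 and 1336 CPM in members against 118, 109 and 236 CPM, and was detected in 194 members. Fstl1b, a secreted follistatin-like protein, had a ratio of 10.4. The ligand tgfb2 was at 63.8, 531 and 255 CPM against 11.1, 27.3 and 37.7 CPM, so its level in members differed widely between fish. The signaling receptor tgfbr1a was not called, at a ratio of 0.655. PDGFRB, the PDGF receptor of mural cells, had 41 UMIs in 34 members and a ratio of 10.5, and pdgfrl, a PDGF receptor-like protein, one of 26.5.

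Other signaling genes were higher in 36 of 118. Among them were 12 of 34 chemokine, complement and prostaglandin genes, 10 of 30 in the FGF and IGF group, 10 of 34 in the Wnt group and 4 of 20 in the hedgehog and Notch group. Cxcl12a, the ligand of Cxcr4 receptors, stood at 574, 502 and 953 CPM in members against 60.2, 61.5 and 121 CPM. Ccl25b, a chemokine, stood at 592, 450.0 and 1468 CPM against 33.2, 74.1 and 118 CPM. Both were highest in fish 3, in members and in other nuclei. Igfbp5b, an IGF-binding protein, had a ratio of 9.0, the Wnt5 receptor ror1 one of 7.07 and the FGF receptor fgfr1a one of 5.67. Angptl1a, a secreted angiopoietin-like protein, stood at 277, 438 and 431 CPM against 7.61, 6.48 and 10.2 CPM. Ptgdsb.1, a prostaglandin D2 synthase, and cfd, complement factor D, had many UMIs (521 and 380) but in 48 and 56 members, and mean ratios of 2.29 and 2.60. Both were highest in the 24 epidermal members, at means of 9571 and 3330 CPM. In the 215 members of none of the 3 kinds they stood at 211 and 289 CPM.

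The 25 genes with the largest mean ratios among higher genes with at least 30 UMIs in at least 15 members had ratios of 34.8 to 97.7 and were higher in each fish. For some a fish rested on very few members, as with si:dkey-282h22.5 in 1 member of fish 1 and olfml2bb in 1 of fish 3. Of these 25, 11 belonged to a list. Cilp, a cartilage intermediate layer protein, stood at 56.2, 280.1 and 229 CPM in members against 4.05, 1.91 and 4.25 CPM, a ratio of 73.0. Abi3bpa, a matrix protein that binds collagen, had a ratio of 62.7 and fgl2b, a fibrinogen-like protein, one of 60.4. Dpt, which encodes dermatopontin, a decorin-binding matrix protein, stood at 83.4, 83.1 and 164 CPM against 2.1, 1.44 and 3.35 CPM. Serpinf1, which encodes PEDF, a secreted inhibitor of vessel growth, had 108 UMIs in 70 members and stood at 267, 340.1 and 92.5 CPM against 6.59, 4.29 and 6.56 CPM. The other genes with a known product included mamdc2b, fndc1, angptl2a, fibinb, spon2b, olfml2bb, sfrp1b, antxr1b, scara3, col28a1b and thbs2a. Si:ch211-251b21.1 and si:dkey-282h22.5 carry no descriptive name.

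Markers of related mesenchymal cells were also counted, since the rule could take such cells in. Contractile genes were higher in 11 of 30, and in 3 without the 35 smooth muscle members. Those 35 were picked on acta2, tagln and myh11a, which belong to this list, so part of that fall follows from the choice. Tagln, an actin-binding protein of smooth muscle, had 193 UMIs in 50 members and stood at 174, 281 and 333 CPM against 19.0, 19.7 and 34 CPM. Acta2, smooth muscle actin, was in 39 members at 242, 325 and 182 CPM against 15.9, 17.4 and 26.2 CPM, but empty barcodes held 115 CPM of it. Mural cell genes were higher in 6 of 12, with rgs5a at a ratio of 4.63. Tendon genes were higher in 5 of 8; tnmd, which encodes tenomodulin, was in 20 members at a ratio of 13.8 and scxa, the tendon transcription factor, in 7.

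Osteoblast and scale genes were higher in 6 of 20. Runx2a, a transcription factor of bone-forming cells, was in 55 members at 209, 228 and 307 CPM against 20.6, 35.6 and 50.9 CPM. The mineralization gene scpp7 had 151 UMIs in only 2 members, and bglapl, an osteocalcin gene, 19 UMIs in 1. Mesothelial genes were higher in 4 of 9, and wt1a and wt1b, transcription factors of mesothelium and kidney, had ratios of 12.1 and 11.2. Cartilage genes were higher in 1 of 11, acana, with 3 UMIs. Of 16 Schwann cell genes only pmp22a and pmp22b were higher, at ratios of 22.9 and 4.84, and sox10, the Schwann and melanocyte factor, was at a ratio of 0.416. Adipocyte genes were higher in 0 of 9.

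Of the single higher genes in lists of distant tissues, rbp4 and krt15 had many UMIs. Rbp4, the plasma carrier of retinol, was in 206 members at 1280.3, 2625 and 2966 CPM against 279, 742 and 398 CPM, whereas the liver list as a whole had a mean of 8147 CPM in members and 23551 CPM in other nuclei. By the median the order was the reverse, at 4428 CPM and 3160.0 CPM, and 19.3% of members and 31.5% of other nuclei had over 1% of their UMIs in that list. The list includes rbp4 itself, and its median without rbp4 was not computed. Krt15, a keratin of basal epidermis, was in 98 members at 736, 579.9 and 591 CPM against 55.1, 83.3 and 199.7 CPM, and it was no longer called without the 24 epidermal members. The others were myhz2 (skeletal muscle, 3 members), mmp9, ebf1b, also a fibroblast factor here, and gad1b, with 1 UMI. The keratinocyte list as a whole stood at 4703 CPM in members and 3457 CPM in other nuclei, and the skeletal muscle list at 4862 and 4130 CPM, where fish 2 members had 9502 CPM against 1664 and 2370 CPM in fish 1 and 3. The part of these transcripts in the members' profile was not tested beyond leaving nuclei out.

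No gene of the tumor list was called higher in members (0 of 16). Its level was lower in members by the mean per nucleus (580.3 CPM against 1468 CPM) and higher on sums (808 CPM against 573 CPM), so its direction turned with the scale. BRAF was detected in 61 members (20.3%) and in 30.5% of other nuclei, EGFP in 6.33% and 13.2% and mitfa in 4.33% and 11.5%. In the GFP-negative gate BRAF was seen in 14.7% of members and 28.6% of other nuclei, and in the GFP-positive gate in 33.9% and 36.2%, where its mean level was 339.4 CPM in members and 339.9 CPM in other nuclei. These shares were not matched for depth, and members were shallower in either gate (medians of 1420.0 and 2517 UMIs, against 1715.5 and 4091 UMIs). Cell cycle genes were higher in 0 of 27 and lower in 3, against 5.15% and 16.8% of all genes tested. Of 8 genes that the study chose on its own samples for the tumor interface, 0 were higher and 4 lower. In members 2 of the 8 had no UMI, and these counts are not independent evidence of a direction. Summed over the 8, the mean was 172 CPM in members and 334 CPM in other nuclei. It was 186, 216 and 129 CPM in nuclei chosen by endothelial, keratinocyte and skeletal muscle genes, so a low level was not particular to the members.

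The members were next set beside 300 endothelial, 300 keratinocyte and 300 skeletal muscle nuclei, each ranked in the same way on genes of that type, to see which levels were shared. Members were left out before each ranking, so nuclei that the rule chose could not enter these classes. Low levels there of genes that go with type I collagen thus follow in part from the choice. These classes had medians of 1033.5, 1831 and 1838.5 UMIs. Col6a3 (ENSDARG00000077139) was at 2619 CPM in members, 232 CPM in endothelial, 33.8 CPM in keratinocyte and 21.3 CPM in muscle nuclei. Sparc was at 1009, 45.6, 127 and 18.4 CPM and mfap5 at 268, 13.0, 0 and 0 CPM in the same order. Prrx1a was at 91.1 CPM in members and at 0, 0 and 3.92 CPM elsewhere. These genes were each far lower in the 3 other classes, from which the members had been left out.

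Endothelial nuclei shared a group of genes with the members. Col4a2 was at 923 CPM in members and 1181 CPM in endothelial nuclei, hspg2 at 553 and 749.8 CPM, cxcl12a at 763 and 1580.1 CPM and ebf3a at 716 and 643 CPM. Ebf1a was at 824 and 469.7 CPM and tgfbr3 at 1304 and 739.5 CPM. Keratinocyte nuclei had 615 CPM of ccl25b against 842 CPM in members, 730.4 CPM of rbp4 against 2237 CPM and 1495 CPM of krt15 against 645 CPM. Krt15 was among the genes that chose the keratinocyte nuclei. Summed over lists, PDGF and TGF-beta genes, pdgfra included, stood at 4411 CPM in members and 5017 CPM in endothelial nuclei. Proteoglycans stood at 2871.5 and 2655 CPM and mural cell genes at 1132 and 1120 CPM. Other signaling genes stood at 10749 CPM in members and 10752 CPM in keratinocyte nuclei. Collagens outside the rule (13335 against 4019 CPM) and matrix glycoproteins (8423 against 3384 CPM) were higher in members than in endothelial nuclei. Basement membrane genes, ebf factors, cxcl12a and the signaling, proteoglycan and mural lists thus did not mark the members alone.

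**Figure D3:**
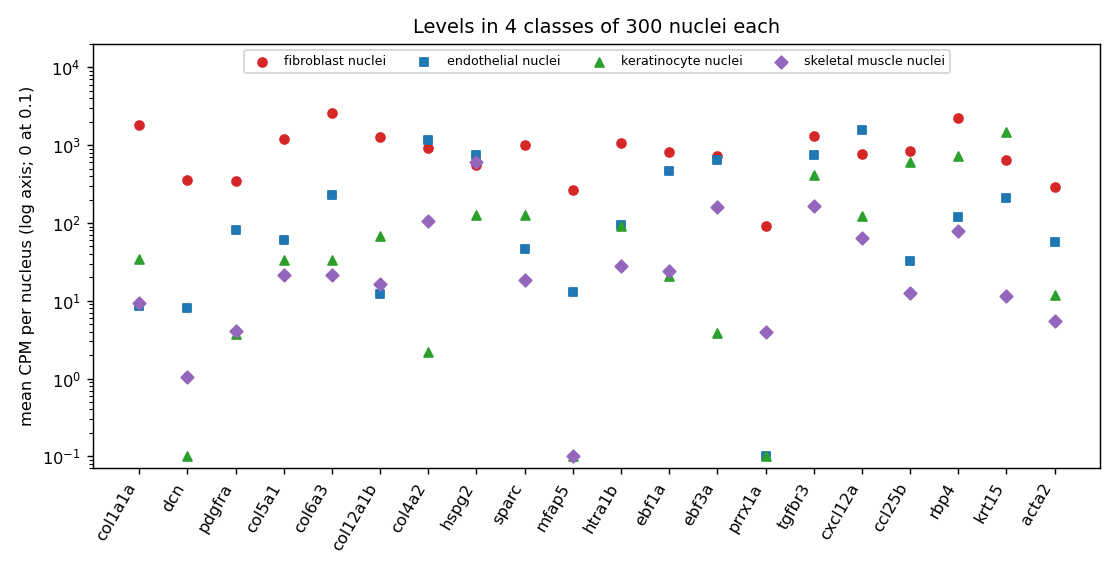
Mean level of 20 genes in the 300 fibroblast nuclei and in 300 nuclei each chosen by endothelial, keratinocyte and skeletal muscle genes. Fibroblast nuclei were left out of the other classes, and krt15 was among the keratinocyte genes. The y axis is mean CPM per nucleus on a log scale, with 0 drawn at 0.1, and each point is 1 class. For col4a2, hspg2 and cxcl12a the endothelial point (1181, 749.8 and 1580.1 CPM) lies above the members, for krt15 the keratinocyte point, and for mfap5 and prrx1a the other classes lie near the bottom.

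Detection of genes within the same nucleus showed how the members varied among themselves. Genes of interest were chosen after values were seen, and at a median of 1562.5 UMIs per nucleus a missing UMI is no sign of absence. Members with such a gene were deeper than those without it. Median UMIs were 2148 against 1441 for wt1b, 2126.5 against 1465.5 for col11a1b and 2033.5 against 1513.5 for PDGFRB. For acta2 they were 1617 against 1533 and for hapln1a 1608 against 1553. The shares below were not matched for depth. Of the 39 members with acta2, 23 (59.0%) had tagln and 19 (48.7%) had myh11a, against 27 (10.3%) and 23 (8.81%) of 261 without it. The same 39 had ebf1a in 5 (12.8%) and fn1a in 2 (5.13%), against 116 (44.4%) and 95 (36.4%) of 261. Contractile genes were thus seen together and seldom with ebf1a or fn1a. Of the 34 members with PDGFRB, 23 (67.6%) had ebf1b, against 15.0% of 266 without it. Tagln was in 11 (32.4%) against 14.7%, rgs5a in 5 (14.7%) against 9.02% and acta2 in 3 (8.82%) against 13.5%, so the contractile and mural genes did not all go one way with PDGFRB.

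Hapln1a and cilp were found with ebf3a. Of 47 members with hapln1a, 31 (66.0%) had ebf3a and 28 (59.6%) had pmp22a, against 27.3% and 22.5% of 253 without it, and 2 (4.26%) had runx2a, against 20.9%. Of 47 with cilp, 36 (76.6%) had ebf3a and 29 (61.7%) angptl1a, against 25.3% and 27.3%. Hapln1a and cilp were in the same nucleus in 14. Fish 2, which gave 43.6% of members with 1 hashtag, gave 26 of 39 (66.7%) such members with hapln1a and 20 of 31 (64.5%) with cilp, so these genes were seen mostly, though not only, in its nuclei.

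Col11a1b was found with col12a1b in 58 of 76 (76.3%), against 72 of 224 (32.1%) without it, and with the tendon gene tnmd in 13 (17.1%) against 7 (3.13%). Cxcl12a was found with ccl25b in 54 of 102 (52.9%), against 39 of 198 (19.7%), so the chemokines were often in the same nuclei. Wt1b was found with fn1a in 23 of 34 (67.6%), against 27.8%. Krt15 was found with cfd in 37 of 98 (37.8%), against 19 of 202 (9.41%). Of the 24 epidermal members, 21 had krt15 and 17 had cfd. Of the rule's own genes, dcn was found with pdgfra in 50 of 118 (42.4%), against 45 of 182 (24.7%), which the rule bears on.

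**Figure D4:**
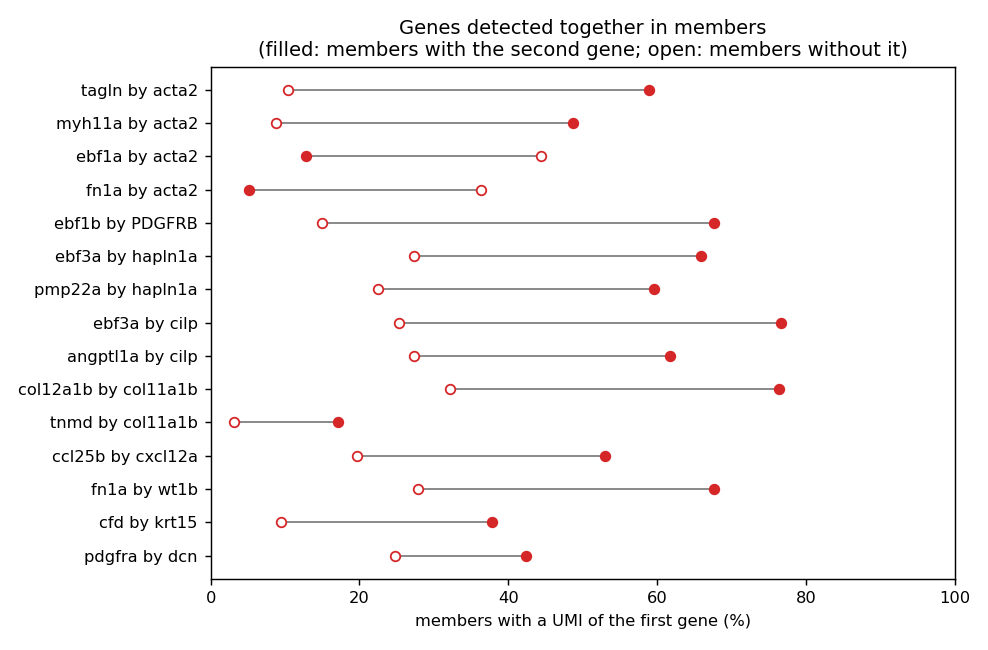
Genes detected in the same member, for 15 pairs. The x axis is the percent of members with a UMI of the first gene, filled points are members with the second gene and open points members without it. Tagln was seen in 59.0% of members with acta2 and 10.3% of those without, ebf1a and fn1a the other way, and ebf3a in 76.6% of members with cilp against 25.3%.

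Along the rank, the collagen list outside the rule stood at a mean of 20025 CPM in the first 100 members, 12840 CPM in the middle 100 and 7139 CPM in the last 100 and at 2349.9 CPM in the 300 nuclei ranked next. Collagens that the rule did not use were thus lower where the share of those it used was lower. Members with lum, dcn or pdgfra stood at 14929 CPM of this list and those with type I collagen alone at 11333 CPM. The latter had more of the keratinocyte list, by the mean (7036 CPM against 2846 CPM) and by the median (2576 CPM against 1789 CPM). The skeletal muscle list was higher in them by the mean alone (6758 CPM against 3351 CPM), with medians of 1101 CPM and 1138 CPM, so a few members carried that mean.

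By hashtag, 163 of the 225 members with 1 hashtag (72.4%, 66.1 to 78.2) came from the GFP-negative gate, against 56.2% of other nuclei. Members made up 58 of 3550 nuclei (1.63%) in fish 1, 98 of 2800 (3.50%) in fish 2 and 69 of 3307 (2.09%) in fish 3. In the GFP-positive gate the shares were alike, at 1.48%, 1.45% and 1.52%. In the GFP-negative gate they were 30 of 1659 (1.81%, 1.22 to 2.57), 77 of 1354 (5.69%, 4.51 to 7.06) and 56 of 2450 (2.29%, 1.73 to 2.96), so fish 2 stood above the others beyond counting error there. Within fish 1, 2 and 3 the GFP-negative gate held 51.7%, 78.6% and 81.2% of members and 46.6%, 47.3% and 73.9% of other nuclei. The mean share was thus 14.5 percentage points higher in members, and higher in 3 of 3 fish. Intervals of the members' shares were 38.2 to 65.0, 69.1 to 86.2 and 69.9 to 89.6. Beyond counting error, members thus stood above other nuclei in fish 2 alone. An exact two-sided permutation test paired by fish gave p = 0.25, the smallest that 3 fish allow. The rule did not use hashtags, but detection and share of the 6 genes depend on depth. Other nuclei had medians of 1715.5 UMIs in the GFP-negative gate and 4091 UMIs in the GFP-positive gate. The part of depth in the gate shares was not tested.

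The gate shares depend on how a hashtag was read. Where each nucleus was given to the hashtag with most counts, 52.0% of members and 43.0% of other nuclei were GFP-negative, and fish 2 had 36% of its members there (49 of 136) against 19.4% of its other nuclei. With hashtags called above 4 times their median, the shares were 72.6% and 55.5%, on 135 members, of which fish 3 gave 10 GFP-negative of 19 (52.6%). Members had the higher share in 3 of 3 fish under each reading of these same nuclei, but beyond counting error in fish 2 alone each time. By most counts the GFP-negative gate of fish 2 still held the largest share of members, at 4.92% against 1.81% and 2.46% in fish 1 and 3. GFP-positive members were deeper (median 2517 UMIs, against 1420) and had less of the collagen list outside the rule (9152 CPM, against 14760 CPM). Summed over the 6 rule genes they stood higher, at 8783 CPM against 6405 CPM. Among these genes, dcn (240 against 404 CPM) and pdgfra (250 against 392 CPM) were lower in them.

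**Figure D5:**
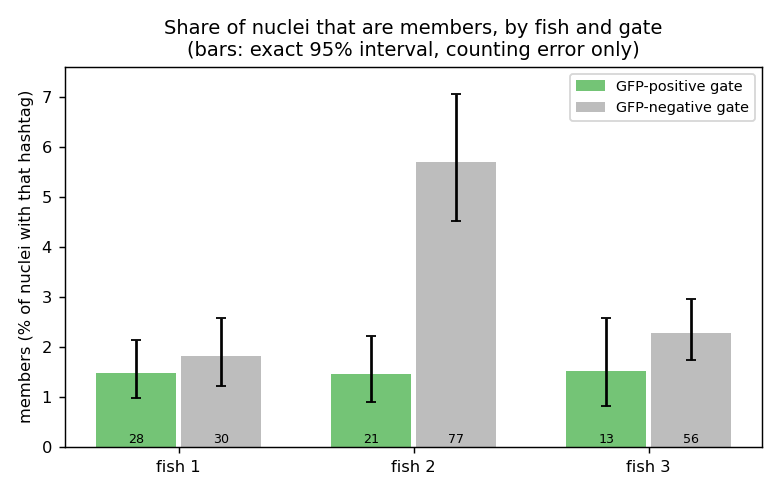
Share of nuclei that were members, by fish and sorting gate. Bars are the percent of nuclei with that hashtag, numbers in the bars count the members, and error bars are exact 95% intervals covering counting error. The GFP-negative gate of fish 2 stands at 5.69%, above 1.45% to 2.29% in the other 5 groups.

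Dissociated cells of 2 further libraries, labelled as replicates of single-cell RNA-seq, were looked at for the same cells. Only 8 of 1780 cells in the first (0.449%, 0.194 to 0.884) and 17 of 1002 in the second (1.70%, 0.991 to 2.70) had at least 2 of the 6 genes, and 0 and 3 of these reached the share of the last-ranked nucleus. These 8 and 17 cells had median depths of 6369.5 and 6757 UMIs, against 16265 and 8879 UMIs over all cells of the libraries. The small numbers let single cells weigh heavily.

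Higher genes in the nuclei were nevertheless often higher in these cells. Of the 407 genes with at least 30 UMIs in at least 15 members, 180 could be tested in the first library and 91 were higher (50.6%, against 7.32% of all genes tested there), and in the second 97 of 196 (49.5%, against 5.44%). In both, 54 were higher. Summed levels of sparc were 249 CPM in the 8 cells against 2.03 CPM in the rest, and 369 CPM in the 17 cells against 32.9 CPM. Mfap5 was at 151 CPM against 0.121 CPM and at 152 CPM against 6.84 CPM. Rbp4 was at 1103 CPM against 37.7 CPM and at 1525 CPM against 6.63 CPM, so this gene stood out in fibroblast-gene cells of both preparations. Serpinh1b was at 75.7 CPM against 1.84 CPM in the first but at 69.7 CPM against 98.0 CPM in the second, and col6a2 had no UMI in the 8 cells of the first. These cells were chosen by the same genes, so the counts are again a description.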

How the data were processed

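Nuclei and dissociated cells were counted by the authors with Cell Ranger on GRCz10. The labels give version 5.0.1 for nuclei and 3.1.0 for cells, but the study's methods give 5.0.1 for cells and the header of the nuclei's file another version, so the versions are unsettled. The deposited values are raw counts (UMIs per gene and barcode). Whether introns were counted is not given in the sources used here. Spatial sections were not used here. The members and gene lists were chosen with earlier results of these data known.

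Filters and the choice of members are given above. Genes with fewer than 20 UMIs and the 6 genes of the rule were left out of calls. Genes were not tested, since transcripts chose the members; the gate share was tested by an exact permutation paired by fish. Text genes were the 6 rule genes, the 25 largest ratios, up to 4 genes of each list with most UMIs, and genes in counts of 5 or fewer; genes beyond these were named after their values were seen, and 1 gene within them is not reported here. Hashtags were called above 2 times their median. The study's removal of doublets and of an erythrocyte cluster was not repeated. A total of 27 alternatives were set, 6 of them after seeing the data. Calls were run on simulated Poisson counts drawn from 1 average profile with set fold changes. The simulation held no cell types and no choice of members by transcripts, so it cannot show how these bear on the calls. Scripts ran in Python 3.11.15 with pandas 2.3.3 for tables, scipy 1.17.1 for intervals, numpy 2.4.6 and, for figures, matplotlib 3.10.9.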

Additional observations from a re-analysis of the deposited data

How the results depend on the processing

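The 1186 higher genes became 586 with 600 members, 689 against other nuclei of at most 5000 UMIs, 684 among genes of at least 100 UMIs, 3516 on sums alone and 2786 at 2-fold. The 3878 lower genes became 7067 with 150 members, 754 with 600, 2538 against the shallower nuclei, 1604 at 100 UMIs and 8157 at 1 UMI. Fewer genes were tested at 100 UMIs and more at 1 UMI; otherwise the cause was not tested. Leaving out the nuclei with 1 hashtag of each fish in turn gave 1134 to 1218 higher and 4004 to 4629 lower genes. Nuclei with no hashtag or several were kept each time, so some of the left-out fish may remain. Thinning to 500 UMIs left 795 higher genes, of which 592 were shared. The GFP-negative share of members, 72.4% against 56.2% of other nuclei, was 52.0% against 43.0% by the hashtag with most counts. The share of dissociated cells with 2 of the 6 genes, 0.899% over both libraries, ran from 0.449% to 1.70% with either left out. The 25 leading genes kept at least a 4-fold mean ratio in all of 475 alternative values, with log2 ratios of 3.8 to 7.32. They were picked for the largest ratios in these same nuclei, so this is no independent support. Of the 475 values, 125 moved by more than the counting interval of the members, 39 up and 86 down. Taking 20 dissociated cells of each library was not run, since only 8 and 17 had 2 of the genes. No paired analysis was possible because the members were chosen by the transcripts compared, so no gene was tested. The gate share was paired by fish in the text. The choice did not use hashtags, but it depends on depth, which differed between the gates. Depth limits genes with few UMIs such as lum, which cannot be called absent in members without a UMI.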

Other observations

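The 267 higher genes with at least 30 UMIs in at least 15 members that belonged to no list include those below. They were picked after their values were seen, from no fixed list, so they say nothing of a pathway as a whole. Aldh1a2, which makes retinoic acid, was at a mean of 134 CPM in members against 16.5 CPM in other nuclei, cyp26b1, which degrades it, at 53.1 against 7.78 CPM, rdh10a, which makes its precursor, at 92.4 against 16.0 CPM, and the receptor raraa at 902 against 190.1 CPM. The retinol carrier rbp4, described above from the liver list, was at 2237 CPM against 484 CPM. Of the complement genes looked at, c4 was at 890 against 149 CPM and c7a at 154 against 6.95 CPM, whereas c3a.1, at 426 against 1698 CPM, and cfd, at a ratio of 2.60, were not called.

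Sema5ba, a semaphorin, stood at 301 CPM in members against 18.1 CPM in other nuclei, and sema5bb, sema3fb, sema3b and sema3e had mean ratios of 16.3, 5.39, 4.71 and 4.53. Slit3 was at 489 against 80.4 CPM, while slit2 (ratio 3.24) and its receptor robo1 (0.886) were not called. The collagen receptor ddr2a was at 163 against 10.8 CPM, the cadherin cdh11 at 469 against 35.5 CPM and the intermediate filament vim at 201 against 8.58 CPM. Antxr1a, antxr1b and antxr1c, copies of a collagen-binding receptor, had ratios of 7.47, 40.6 and 8.96. Myoc, a secreted olfactomedin protein, was at 231 against 7.72 CPM in 34 members, and 8 of the 21 members with sost, an inhibitor of Wnt signaling, had it, against 26 of 279 without.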
